A study of Saccharomyces cerevisiae with 6 samples.

Results

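The mitochondrial ribosomal protein genes of budding yeast were taken as the genes of the count table whose name is MRPL, MRPS, RSM or MRP followed by a number. The pattern found 66 genes of 6400, all of which had enough counts to be tested. By textbook assignment 37 belong to the large subunit of the mitochondrial ribosome and 28 to the small subunit. The remaining gene, MRP8, carries the name but was placed in neither subunit, because the R64 annotation records that it was first thought to be a ribosomal protein from its sequence. RSM22 was counted with the small subunit by its name, although the annotation also describes it as a predicted methyltransferase. Of the 66 genes, 64 could be tied to a uniform ribosomal protein name through the R64 synonyms, and MRP8 and RSM22 were the exceptions.

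The mitochondrial ribosome is built almost entirely from proteins encoded in the nucleus and imported into the organelle, while its RNAs come from the mitochondrial genome. It translates a small set of mitochondrial messages, most of which encode membrane subunits of the respiratory chain and the ATP synthase. Many of its proteins have bacterial homologs (u and b in the uniform names), and the others are specific to mitochondria (m in the uniform names). In yeast its genes are known to be regulated apart from those of the cytosolic ribosome.

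The study asked how cells rearrange their metabolism when they adapt to growth on methanol, and it compared CX01F, an evolved strain, with CX01, its parent. Each strain gave 3 biological replicates. The cultures passed from YPD, a rich medium, through 16 h in Delft (a defined minimal medium) to Delft with 1% methanol in place of glucose. They grew in shake flasks at 30 °C and 200 rpm and were harvested at an OD600 near 1.0. All 6 libraries carry the same genotype label. It names P. Paox1-SKL and P. Pdas1-skl, then P. pDAK, and further B. mMDH3-skl with B. mACT1-skl. It continues with P. pPYC and the set of P. sXR, P. sXDH and P. sXK. PEX5 follows, then the deletions ∆PEX31 and ∆PEX32, and last S.c MDH2 with S. cMDH3 and S. Cnde1. Whether CX01F is a single clone or a population is not stated in the labels.

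Library totals were 58360225, 52849030 and 62826253 counts in CX01F, against 51537969, 63183824 and 56237312 counts in CX01. The 66 genes had between 1242 and 36010 counts in a library, so counting error was small beside the larger differences described, though not beside the smallest. PEX31 had 1, 0 and 1 count in the CX01F libraries and 0 in each CX01 library. PEX32, also labelled as deleted, had 183, 167 and 230 counts in CX01F, against 219, 259 and 279 counts in CX01, which goes against its label in both strains. The labels give no batch or date, so effects of handling and of strain cannot be told apart.

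In CX01F, messages of the mitochondrial ribosome moved in both directions and by small amounts. Of the 66 genes, 19 rose, 34 fell and 13 did not pass the test, and the median log2 change was -0.08. The threshold for a call was an adjusted p under 0.05 in edgeR's quasi-likelihood test with Benjamini-Hochberg adjustment over all 6129 tested genes. The strains differed so widely that 91.4% of all tested genes were called, with 45.5% higher and 45.9% lower in CX01F. Among the 66 genes 80.3% were called, with 28.8% higher and 51.5% lower. Libraries of the strains did not overlap in 53 of the 66 genes, against 5631 of the 6129 tested genes. A change of at least 2-fold was found in 8 of the 66 genes (12.1%), all of them lower in CX01F, against 30.6% of all tested genes. The quartiles of the 66 log2 changes were -0.54 and 0.18, an interquartile range of 0.72, against one of 1.21 over all tested genes, whose median was 0.00.

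TMM scaling assumes that most genes stay put, and each change is measured against that baseline. Scaled by library size alone, the median of all genes shifted by -0.207 on the log2 scale, and 12 of the 66 genes were called higher and 48 lower. Counts within a library give shares of the RNA sequenced. A change in the RNA per cell and a change in the mix of cells in a culture cannot be told apart from them.

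**Figure D1:**
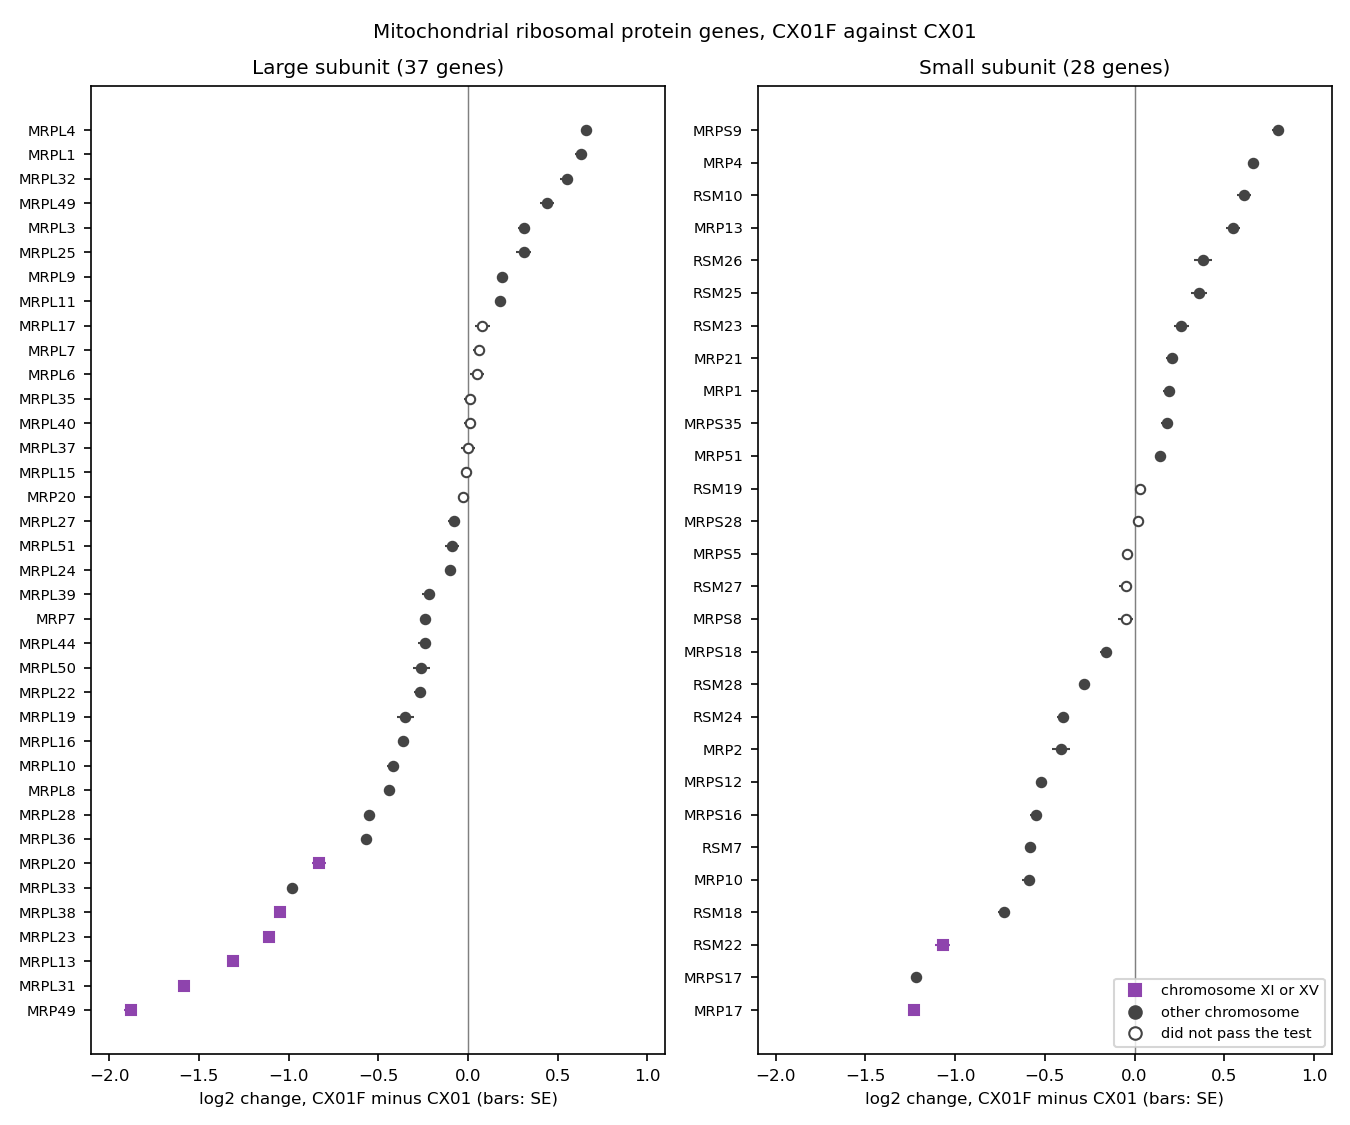
The log2 change (CX01F minus CX01) of each subunit gene is plotted on the horizontal axis, sorted within the 37 large-subunit and 28 small-subunit genes, with bars for 1 SE on each side, open circles for genes that did not pass the test and squares for genes on chromosomes XI and XV. The 8 changes of at least 2-fold are all lower in CX01F, from -1.88 for MRP49 to -1.05 for MRPL38, and 7 of them are squares.

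In the large subunit 8 of 37 genes rose in CX01F, 21 fell and 8 did not pass the test, with a median log2 change of -0.10. Log2 changes ran from -1.88 to 0.66, so the falls reached further than the rises. The largest rise was that of MRPL4, the uL29m protein, which lies near the mouth of the tunnel through which the new chain leaves the ribosome. It had 76.9, 79.6 and 78.2 CPM (counts of a gene relative to the TMM-scaled library total, scaled up to a fixed library size) in CX01F, against 47.8, 50.7 and 49.9 CPM in CX01. The gene was 1.58-fold higher in CX01F (log2 change 0.66, SE 0.0319, edgeR adjusted p = 4.96e-11). MRPL1, the uL1m protein, had 63.6, 65.5 and 65.9 CPM in CX01F, against 43.3, 40.3 and 42.4 CPM in CX01. It was 1.55-fold higher (adjusted p = 2.35e-10). MRPL32 encodes bL32m, a protein known to be matured by the m-AAA protease after import. It had 39.3, 38.8 and 38.6 CPM in CX01F, against 27.3, 26.1 and 26.2 CPM in CX01, which is 1.47-fold higher in CX01F (adjusted p = 2.38e-09).

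Smaller rises followed in genes of both evolutionary classes. MRPL49, the bL21m protein, had 42.0, 42.5 and 42.7 CPM in CX01F, against 32.2, 32.1 and 29.4 CPM in CX01, a log2 change of 0.44. MRPL25, the mitochondria-specific mL59, and MRPL3, or mL44, a relative of ribonuclease III, each had a log2 change of 0.31. MRPL9 (uL3m) and MRPL11 (uL10m, at the base of the ribosomal stalk) had log2 changes of 0.19 and 0.18. In each of these genes all CX01F libraries lay above all CX01 libraries, but MRPL49, MRPL25 and MRPL3 had to be without overlap to be named. Libraries of the strains did not overlap in 5631 of all 6129 tested genes.

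The 6 largest falls of the large subunit took in genes of both classes, and 3 of the 5 that reached 2-fold are mitochondria-specific. MRP49, or mL61, had 34.3, 31.5 and 33.9 CPM in CX01F, against 123, 121 and 123 CPM in CX01. It was 3.67-fold lower in CX01F, the largest change among the 66 genes (log2 change -1.88, SE 0.0339, edgeR adjusted p = 6.39e-16). The R64 annotation describes MRP49 as not essential for mitochondrial translation. MRPL31, or mL60, had 44.2, 44.9 and 46.3 CPM in CX01F, against 136, 134 and 134 CPM in CX01, 2.98-fold lower in CX01F. MRPL13, or mL50, had 62.1, 62.3 and 60.2 CPM in CX01F, against 152, 155 and 150 CPM in CX01, 2.48-fold lower in CX01F (adjusted p = 3.37e-15). In all 3 genes the gap between the strains was many times the spread among the cultures of either strain.

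MRPL23 encodes uL13m. It had 73.4, 71.9 and 78.2 CPM in CX01F, against 163, 160 and 161 CPM in CX01, and was 2.16-fold lower in CX01F. MRPL38, the uL14m protein, had 65.6, 66.3 and 67.9 CPM in CX01F, against 141, 137 and 137 CPM in CX01, and was 2.07-fold lower. MRPL33, or uL30m, had 39.5, 38.6 and 39.6 CPM in CX01F, against 78.5, 76.9 and 76.6 CPM in CX01, 1.97-fold lower in CX01F. MRPL33 was the largest fall of the large subunit outside chromosomes XI and XV (adjusted p = 2.31e-13). Among the other falls MRPL20 (mL58) had a log2 change of -0.83 and MRPL36 (bL31m) one of -0.57.

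**Figure D2:**
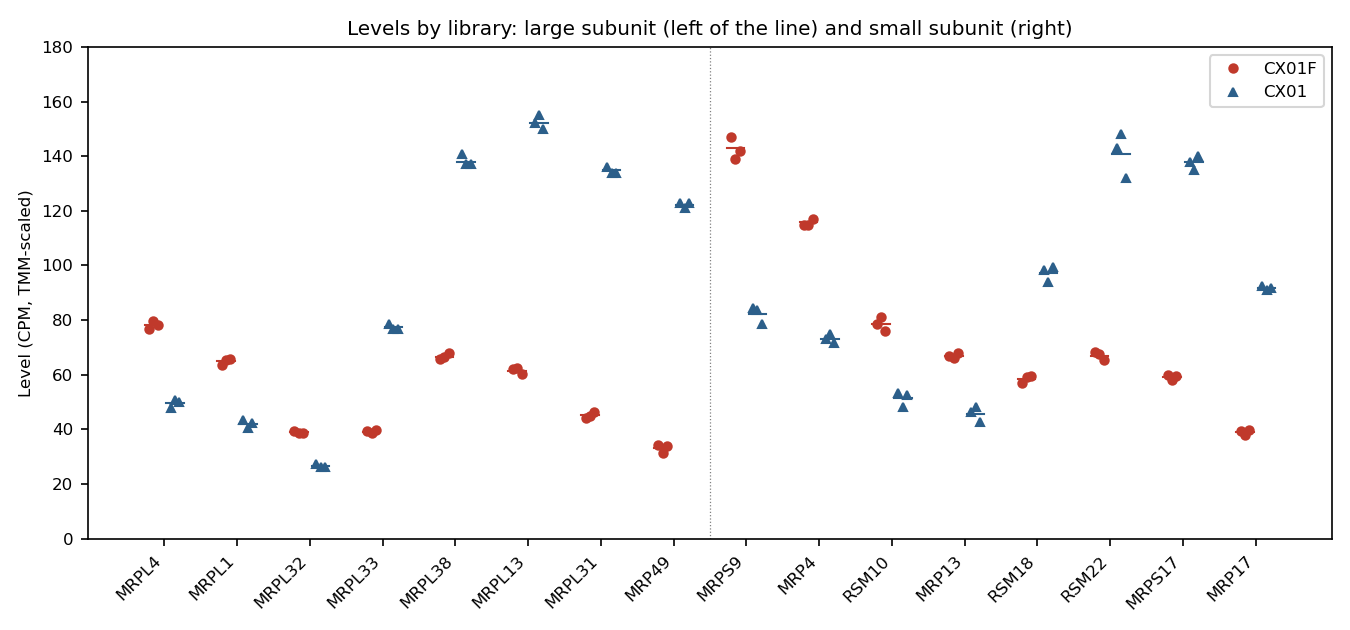
CPM of 16 genes taken from the largest called rises and falls, 8 in each subunit, is plotted for each library on a linear axis from 0, with CX01F as circles left of CX01 as triangles and a short line at each mean. Genes were taken only if the libraries of the strains did not overlap, so the separation of the points follows from that choice. MRP49 has means of 33.2 CPM in CX01F and 122 CPM in CX01.

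In the small subunit 11 of 28 genes rose in CX01F, 12 fell and 5 did not pass the test, with a median log2 change of -0.04. This balance held under TMM, whereas by library size alone 6 rose and 18 fell, and in the fit without chromosomes XI and XV 9 of 26 rose and 15 fell. MRPS9, the uS9m protein, had 147, 139 and 142 CPM in CX01F, against 84.5, 83.7 and 78.7 CPM in CX01. At 1.74-fold higher in CX01F it was the largest rise among the 66 genes (log2 change 0.80, SE 0.0329, edgeR adjusted p = 7.97e-12). MRP4, or uS2m, had 115, 115 and 117 CPM in CX01F, against 73.0, 74.8 and 71.5 CPM in CX01, 1.58-fold higher in CX01F. MRP4 overlaps YHL005C, a gene with 61 to 88 counts in CX01F libraries and 109 to 121 counts in CX01 libraries, so a few of its reads are uncertain. RSM10, the uS10m protein, had 78.4, 81.0 and 76.1 CPM in CX01F, against 53.3, 48.2 and 52.5 CPM in CX01, 1.53-fold higher in CX01F.

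The next rises by size, from MRP13 to RSM23, were in mitochondria-specific proteins. MRP13, or mS44, had 66.8, 66.1 and 67.8 CPM in CX01F, against 46.2, 48.1 and 42.8 CPM in CX01, 1.46-fold higher in CX01F (edgeR adjusted p = 5.42e-09). RSM26, or mS42, had 47.9, 48.3 and 48.7 CPM in CX01F, against 40.1, 37.3 and 33.9 CPM in CX01, a log2 change of 0.38. RSM25, or mS23, had 43.1, 43.0 and 43.5 CPM in CX01F, against 36.1, 32.4 and 32.6 CPM in CX01, a log2 change of 0.36. RSM26 and MRP1 (mS43) are both related to superoxide dismutases, and MRP1 had a log2 change of 0.19. RSM23, or mS29, the yeast counterpart of the animal protein DAP3, had a log2 change of 0.26. MRP21 and MRP51, which have bacterial homologs, rose by 0.21 and 0.14 on the log2 scale, and the mitochondria-specific MRPS35 by 0.18. The sizes below 0.3 lie close to the shift between scalings: by library size alone MRP21, MRP1, RSM23, MRPS35, MRPL9 and MRPL11 were no longer called, and MRP51 was called lower. In the fit without chromosomes XI and XV, MRPS35 and MRP51 lost their calls.

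In the small subunit 3 genes fell by more than 2-fold. MRP17, the bS6m protein, had 39.5, 38.0 and 39.7 CPM in CX01F, against 92.5, 90.9 and 91.6 CPM in CX01, 2.34-fold lower in CX01F (log2 change -1.23, SE 0.0300, edgeR adjusted p = 1.76e-14). MRPS17, the uS17m protein, had 59.8, 58.2 and 59.5 CPM in CX01F, against 138, 135 and 140 CPM in CX01, 2.33-fold lower in CX01F. RSM22, the predicted methyltransferase, had 68.2, 67.5 and 65.2 CPM in CX01F, against 143, 148 and 132 CPM in CX01, 2.11-fold lower in CX01F. MRPS17 lies on chromosome XIII, whereas MRP17 and RSM22 lie on XI.

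Falls of 1.43-fold to 1.66-fold were seen in 5 further small-subunit genes. RSM18 (bS18m) had 56.8, 59.2 and 59.4 CPM in CX01F, against 98.2, 94.0 and 99.5 CPM in CX01. MRP10 (mS37), a small protein with twin CX9C motifs, had 37.4, 36.2 and 38.9 CPM in CX01F, against 56.7, 54.7 and 57.8 CPM in CX01. RSM7 (uS7m) had 87.7, 90.9 and 94.8 CPM in CX01F, against 138, 134 and 138 CPM in CX01. The last 2 of these 5 are MRPS16 (bS16m) and MRPS12 (uS12m, a protein of the decoding centre), with log2 changes of -0.55 and -0.52. None of these 5 genes had overlapping libraries, but RSM18, MRP10 and RSM7 had to be without overlap to be named. Libraries did not overlap in 5631 of all 6129 tested genes either.

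MRP8, the gene of doubtful membership, had 321, 321 and 323 CPM in CX01F, against 519, 531 and 542 CPM in CX01. It was 1.65-fold lower in CX01F (edgeR adjusted p = 1.57e-12) and had the highest CPM per kb of the 66 in both strains.

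The 13 genes that did not pass the test had fitted log2 changes between -0.05 and 0.08. Their place depends on the scaling: by library size alone all 13 were called lower, with log2 changes from -0.26 to -0.12, and in the fit without chromosomes XI and XV 10 of them were called lower, with changes of the 13 from -0.17 to -0.03. In the large subunit they were MRPL17 (0.08), MRPL7 (0.06), MRPL6 (0.05), MRPL35 and MRPL40 (0.01 each), MRPL37 (0.00), MRPL15 (-0.01) and MRP20 (-0.03), all as log2 changes. In the small subunit they were RSM19 (0.03), MRPS28 (0.02), MRPS5 (-0.04), RSM27 and MRPS8 (-0.05 each). Over the 66 genes the SE of a log2 change lay between 0.0247 and 0.0509. MRP20, the uL23m protein near the tunnel exit, had 169, 166 and 167 CPM in CX01F, against 169, 173 and 172 CPM in CX01 (edgeR adjusted p = 0.199). RSM19, the uS19m protein, had 59.9, 60.8 and 61.5 CPM in CX01F, against 60.6, 59.1 and 58.3 CPM in CX01 (adjusted p = 0.287). The calls of MRPL27 (log2 change -0.08, adjusted p = 0.0317) and MRPL51 (-0.09, adjusted p = 0.0428) were each lost when any of 3 single libraries was left out. For MRPL27 these were CX01F replicates 1 and 2 and CX01 replicate 1, and for MRPL51 CX01F replicate 2 and CX01 replicates 1 and 3. The call of MRPL24 (-0.10) was lost without CX01F replicate 1, where its adjusted p was 0.0551.

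Set against each other, the subunits differed little in their typical gene and more in their summed message. The median log2 change was -0.10 over the large and -0.04 over the small subunit, a difference of -0.05. Leaving out single libraries moved that difference between -0.08 and -0.04. Summed over its 37 genes, the large subunit held 2320, 2301 and 2327 CPM in CX01F, against 2951, 2921 and 2890 CPM in CX01, a ratio of 0.793 of CX01F over CX01. Summed over its 28 genes, the small subunit held 2076, 2039 and 2082 CPM in CX01F, against 2334, 2288 and 2275 CPM in CX01, a ratio of 0.899. The large-to-small ratio of these sums was 1.12, 1.13 and 1.12 in CX01F libraries, against 1.26, 1.28 and 1.27 in CX01 libraries. These ratios do not overlap between the strains, and a ratio within a library does not depend on the scaling. They do depend on which genes are counted: with the subunit proteins of other names, an alternative chosen after seeing the data, the ratio was 1.20, 1.22 and 1.21 in CX01F libraries, against 1.27, 1.28 and 1.27 in CX01 libraries. Without chromosomes XI and XV this wider ratio was 1.16 to 1.18 in CX01F libraries, against 1.17 to 1.18 in CX01 libraries, and the strains overlapped. The sums and ratios are descriptions of the chosen genes and carry no test.

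Most of the difference in the ratio over the name pattern lay with genes of chromosomes XI and XV. Without them it was 1.01, 1.02 and 1.01 in CX01F libraries, against 1.03, 1.04 and 1.03 in CX01 libraries. Outside XI and XV the 31 large-subunit genes had a median log2 change of -0.03, with 8 higher and 15 lower. The 26 small-subunit genes outside XI and XV had a median of -0.01, with 11 higher and 10 lower. For these 26 genes the counts were 6 higher and 16 lower by library size alone (median -0.22), and 9 higher and 15 lower in the fit without XI and XV (median -0.12). For the 31 large-subunit genes they were 6 and 23 by library size alone (median -0.24), and 8 and 20 in the fit without XI and XV (median -0.15). On XI and XV lie 6 large-subunit genes, all lower in CX01F with a median of -1.21, and 2 small-subunit genes, both lower with a median of -1.15.

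**Figure D3:**
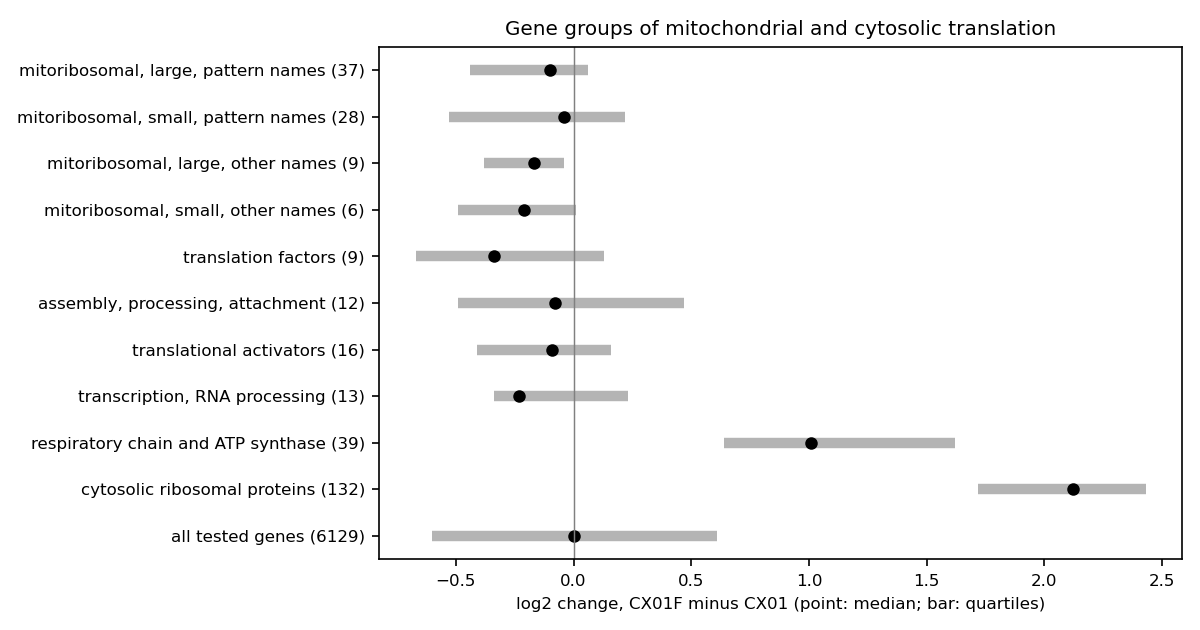
Points give the median and bars the quartiles of log2 change (CX01F minus CX01) over the genes of each group, with the number of genes in brackets and all tested genes in the lowest line. The large and small subunits centre at -0.10 and -0.04, while the respiratory chain with the ATP synthase centres at 1.01 and the cytosolic ribosomal proteins at 2.12.

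By chromosome, the 9 genes on XI and XV all fell in CX01F, with log2 changes between -1.88 and -0.72 and a median of -1.11. They are MRP49, MRPL31, MRPL13, MRPL38, MRPL20, MRP17, RSM22 and MRP8 on XI, 6 of them on its left arm and 2 on its right arm, and MRPL23 on XV. They include 7 of the 8 changes of at least 2-fold, MRPS17 being the exception. The whole of these chromosomes was shifted: of 851 tested coding genes on XI and XV, 677 (79.6%) were lower in CX01F, 139 were higher, and the median was -0.85. The part of this shift in the 9 falls was not tested. The 57 genes elsewhere had 19 higher, 25 lower and a median of -0.03, against a median of 0.12 over 5002 coding genes elsewhere. With the libraries scaled on the other chromosomes alone, 17 of the 57 rose and 35 fell, with a median of -0.15, and by library size alone 12 rose and 39 fell.

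Smaller differences were seen among the other chromosomes. On VII, 5 of 6 genes rose and none fell, with a median of 0.23, where 51.6% of 529 coding genes were higher and 37.1% lower, with a median of 0.13. On XIV, 7 of 9 genes fell and none rose, with a median of -0.26, where 50.1% of 391 coding genes were higher and 39.6% lower, with a median of 0.08. On IV, with 12 genes, 4 rose and 4 fell. By library size alone the genes of VII had 2 rises and 1 fall, with a median of 0.02, and all 9 genes of XIV fell. Genes of a chromosome were grouped with these values in view, and the groups are small.

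**Figure D4:**
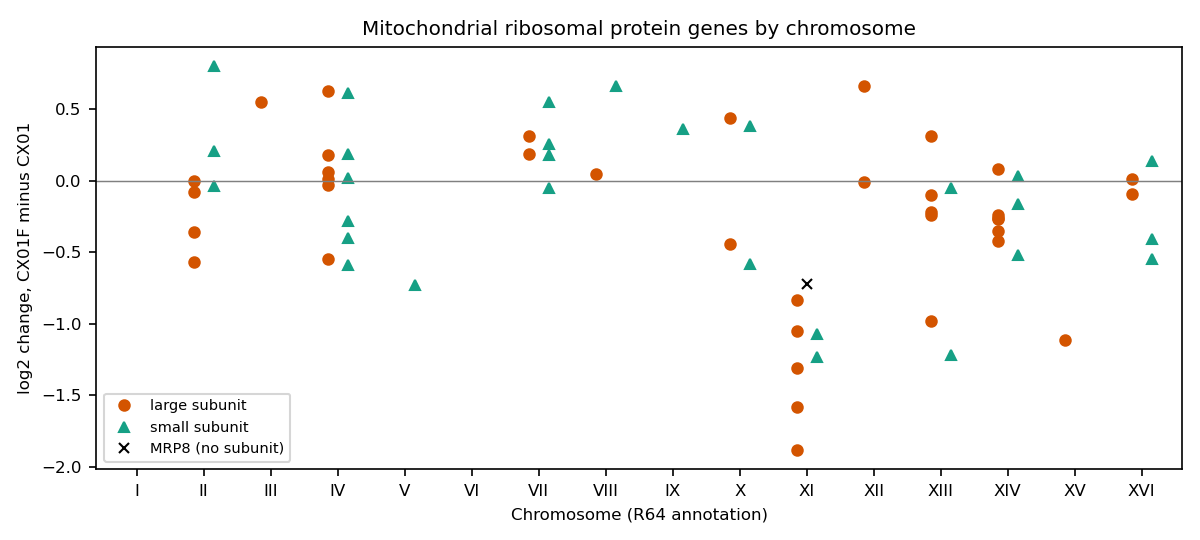
The log2 change (CX01F minus CX01) of each of the 66 genes is plotted by chromosome, with circles for the large subunit, triangles for the small subunit and a cross for MRP8. The 9 symbols on XI and XV lie between -1.88 and -0.72, and MRPS17 and MRPL33 on XIII lie at -1.22 and -0.98.

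Levels per coding length were closer to each other in CX01F than in CX01. The proteins of a ribosome are needed in about equal numbers, so the evenness of their messages was described as the SD of log2 CPM per kb over genes. Over the 66 genes this SD was 0.66 to 0.67 in CX01F libraries, against 0.94 to 0.97 in CX01 libraries. In the large subunit it was 0.49 to 0.50 in CX01F libraries, against 0.87 to 0.89 in CX01 libraries. In the small subunit it was 0.72 to 0.74 in CX01F libraries, against 0.90 to 0.94 in CX01 libraries. Chromosomes XI and XV held part of this: without them the SD over the remaining 57 genes was 0.59 to 0.60 in CX01F libraries, against 0.81 to 0.84 in CX01 libraries. Over all 5853 tested coding genes the SD went the other way, at 2.02 in CX01F libraries, against 1.85 in CX01 libraries. The 132 cytosolic ribosomal protein genes had an SD of 0.88 to 0.89 in CX01F libraries, against 1.05 to 1.06 in CX01 libraries. The 39 genes of the respiratory chain and ATP synthase went the other way by SD, at 1.39 or more in each CX01F library, against 1.07 to 1.08 in CX01 libraries. Their interquartile range was narrower in CX01F, at 0.74 to 0.76 in CX01F libraries, against 0.97 to 1.02 in CX01 libraries. Over the 66 genes it was 0.81 to 0.86 in CX01F libraries, against 1.39 to 1.48 in CX01 libraries. The interquartile range of the cytosolic ribosomal protein genes was 0.82 to 0.84 in CX01F libraries, against 1.25 to 1.26 in CX01 libraries. That of all tested coding genes hardly differed, at 2.03 to 2.05 in CX01F libraries, against 1.98 to 1.99 in CX01 libraries. By this measure the narrowing was thus shared by the mitochondrial, cytosolic and respiratory lists. SDs over genes are descriptions of these libraries, and the 3 libraries of a strain hardly differed in them.

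**Figure D5:**
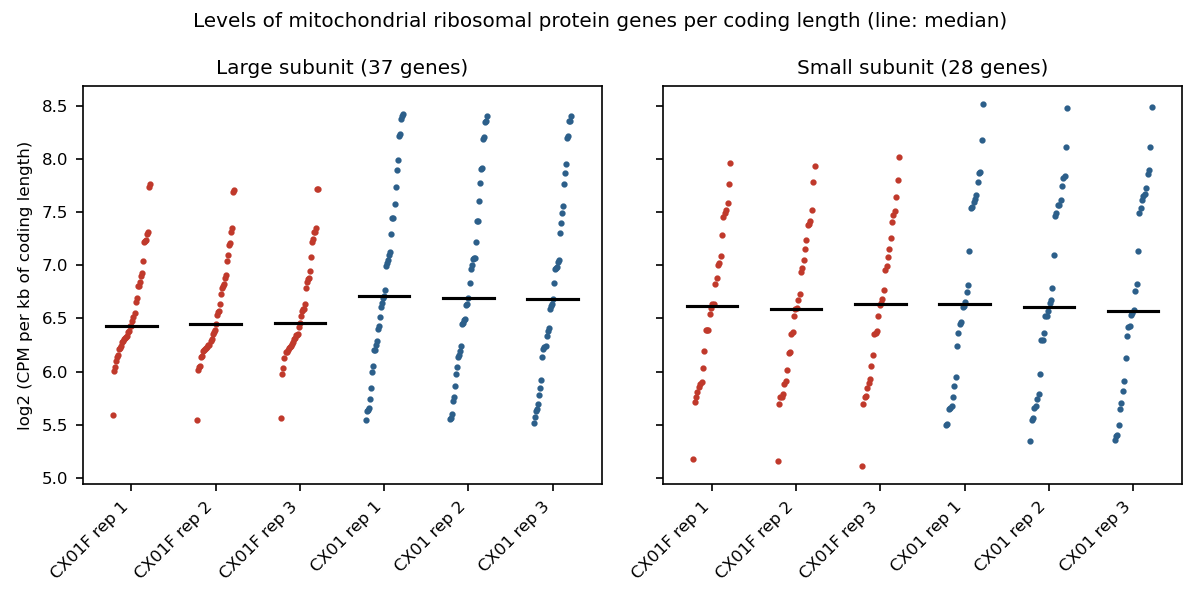
The log2 CPM per kb of coding length of each gene is plotted by library, with the 3 CX01F libraries left of the 3 CX01 libraries, genes sorted by level within a library and a line at the median, for the large and the small subunit. The large-subunit genes span a narrower range in the CX01F libraries, where their SD is 0.49 to 0.50, than in the CX01 libraries, where it is 0.87 to 0.89.

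The order of the genes by CPM per kb changed with this. Spearman's rho of the 66 levels between libraries lay between 0.991 and 0.997 for cultures of the same strain, and between 0.783 and 0.819 across strains. MRP8 was highest in both, at 487 CPM per kb in CX01F and 804 in CX01, followed by MRPS12 at 251 CPM per kb in CX01F and 361 in CX01. RSM19, at 220 CPM per kb in CX01F and 215 in CX01, ranked 3 in CX01F and 14 in CX01. MRP20 and MRPL39 (bL33m) stood level in CX01F at 211 CPM per kb each, against 216 and 247 CPM per kb in CX01. RSM19 and MRP20 thus moved up the order at nearly constant levels. Others moved with their own change: MRP49 ranked 42 in CX01F and 7 in CX01, at 80.3 CPM per kb in CX01F and 295 in CX01. MRPS9 ranked 9 in CX01F and 36 in CX01, at 171 CPM per kb in CX01F and 98.3 in CX01. RSM22 ranked 66 in CX01F but 48 in CX01, at 35.5 CPM per kb in CX01F and 74.7 in CX01. Other genes with low levels were MRPL35 (47.4 in CX01F and 47.0 in CX01), MRPS5 (52.0 in CX01F and 53.3 in CX01), RSM25 (54.3 in CX01F and 42.4 in CX01), and MRPL3 (65.4 in CX01F and 52.7 in CX01).

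Shorter genes fell more often. Coding lengths ran from 213 to 1887 bp with a median of 706.5 bp. Of the 33 shorter genes 5 rose, 23 fell and 5 did not pass, with a median log2 change of -0.35. Of the 33 longer genes 14 rose, 11 fell and 8 did not pass, with a median of 0.02. By library size alone the shorter genes had 4 rises, 28 falls and a median of -0.55, and the longer ones 8 rises, 20 falls and a median of -0.19. With TMM, outside XI and XV, 5 of 26 shorter genes rose and 16 fell, and 14 of 31 longer genes rose and 9 fell. Of 1501 tested coding genes up to the median length 668 rose and 694 fell, and of 4352 longer ones 2061 rose and 1948 fell. Spearman's rho between coding length and log2 change was 0.413 over the 66 genes and 0.423 without chromosomes XI and XV, against -0.0291 over all tested coding genes. Within the subunits it was 0.407 for the large and 0.381 for the small. Outside XI and XV, coding genes of the shorter length range had a median of 0.09 and those of the longer range one of 0.20, against -0.19 and 0.06 for the mitochondrial ribosomal protein genes in these ranges. These correlations run across genes measured in the same 6 libraries and carry no test. Shorter genes also had the higher levels per kb (rho between length and CPM per kb of -0.493 in CX01F and -0.584 in CX01). Over all tested coding genes this rho was also negative, at -0.244 in CX01F and -0.235 in CX01. Length, level and evenness thus move together and were not separated.

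By origin, the classes overlapped widely. Of 23 large-subunit proteins with a bacterial homolog 6 rose and 13 fell in CX01F, with a median log2 change of -0.22. Of 14 mitochondria-specific large-subunit proteins 2 rose and 8 fell, with a median of -0.08. In the small subunit 5 of 17 proteins with a bacterial homolog rose and 8 fell, with a median of -0.05. The 10 mitochondria-specific small-subunit proteins had 6 rises and 3 falls, with a median of 0.18, which turned to -0.02 by library size alone. By name the counts of rises and falls were 8 and 19 of 34 for MRPL, 2 and 4 of 9 for MRPS, 4 and 5 of 11 for RSM, and 5 and 6 of 12 for MRP.

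Mitochondrial ribosomal proteins that carry other names also moved both ways. Of 9 such large-subunit proteins 2 rose and 6 fell (median log2 change -0.17), and of 6 such small-subunit proteins 1 rose and 4 fell, with a median of -0.21. MNP1, the bL12m protein of the stalk, had a log2 change of 0.32 and RTC6, or bL36m, one of -0.47. In the small subunit PET123 (mS26) averaged 86.7 ± 1.24 CPM in CX01F and 194 ± 2.88 CPM in CX01 (SD, n = 3 each), and it lies on chromosome XV. EHD3 (mS47) alone rose, averaging 10.1 CPM in CX01F libraries and 6.04 CPM in CX01 libraries. Summed CPM of these proteins in CX01F over CX01 was 0.923 in the large and 0.692 in the small subunit, the reverse of the order among the genes of the name pattern. The small-subunit sum averaged 355.4 CPM in CX01F and 513.4 CPM in CX01, and much of this difference lay with PET123 alone. With these genes, 22 of 80 mitochondrial ribosomal proteins rose and 43 fell, with a median of -0.10.

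The machinery around the mitochondrial ribosome also moved both ways. Of 9 translation factors 3 rose and 5 fell (median log2 change -0.34.) IFM1, initiation factor 2 of mitochondria, averaged 46.4 ± 0.366 CPM in CX01F and 179 ± 6.7 CPM in CX01 (SD, n = 3 each), 3.85-fold lower in CX01F. TUF1, the elongation factor Tu, had a log2 change of -0.47, and MEF1, the elongation factor G, one of 0.32. Both IFM1 and TUF1 lie on chromosome XV. Of 12 genes for assembly, processing and membrane attachment 5 rose and 6 fell, with a median of -0.08. OXA1, the inner membrane insertase that binds the ribosome, averaged 114 ± 2.67 CPM in CX01F and 72.2 ± 1.12 CPM in CX01 (SD, n = 3 each). MDM38, a ribosome receptor of the inner membrane on chromosome XV, averaged 335 ± 3.33 CPM in CX01F and 854 ± 30.7 CPM in CX01 (SD, n = 3 each). AFG3 and YTA12, the subunits of the m-AAA protease that matures MRPL32, had log2 changes of -0.39 and -0.62, while MRPL32 itself rose.

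Genes that act on single mitochondrial messages, and those of mitochondrial RNA, gave similar counts. Of 16 translational activators 6 rose and 8 fell (median log2 change -0.09), between SOV1 at -0.68 and PET309, an activator of COX1 translation, at 0.42. Of 13 genes for mitochondrial transcription and RNA processing 4 rose and 8 fell, with a median of -0.23. RPM2, a subunit of mitochondrial RNase P, averaged 707 ± 2.39 CPM in CX01F and 407 ± 13.9 CPM in CX01 (SD, n = 3 each). PET127, an RNA processing factor on chromosome XV, averaged 55.8 ± 1.04 CPM in CX01F and 165 ± 2.96 CPM in CX01 (SD, n = 3 each). Over these lists and the proteins with other names together, 6 of 7 genes on XI and XV fell, with a median of -1.16, and 20 of 58 elsewhere rose and 31 fell, with a median of -0.15. By library size alone the falls were more: 1 rise and 6 falls among translation factors, 4 and 7 in assembly, 2 and 10 among activators, and 2 and 9 in transcription and RNA processing.

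Among 7 regulators (PUF3, SFP1, HAP1, HAP2, HAP3, HAP4 and HAP5) 1 rose and 6 fell. HAP4, the activating subunit of the HAP complex and a gene of chromosome XI, averaged 750 ± 6.5 CPM in CX01F and 576 ± 26.9 CPM in CX01 (SD, n = 3 each). HAP5, a DNA-binding subunit of that complex encoded on XV, averaged 54.8 ± 1.24 CPM in CX01F and 110 ± 2.34 CPM in CX01 (SD, n = 3 each). PUF3, which binds messages of mitochondrial proteins, averaged 123 ± 2.0 CPM in CX01F and 132 ± 1.98 CPM in CX01 (SD, n = 3 each), a log2 change of -0.10.

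The ribosome of the cytosol and the respiratory chain moved on another scale. Of 132 cytosolic ribosomal protein genes 129 rose in CX01F and 2 fell (median log2 change 2.12.) The extremes were RPS22A at 3.16 and RPS25B at -0.58, and a near-identical copy makes each uncertain. Many genes of this list are such A and B copies, and how reads shared between copies were counted is not given. The counts of rises and falls, the sums and the ratios of this list carry the same limit. Of 39 nuclear genes of the respiratory chain and the ATP synthase 36 rose and 3 fell, with a median of 1.01, from CYC7 at -1.67 to CYC1 at 2.87, the minor and major forms of cytochrome c. By library size alone these medians were 1.92 and 0.81, so neither list turned. Cytosolic ribosomal messages summed to 57840 ± 1130 CPM in CX01F and 15350 ± 527 CPM in CX01 (SD, n = 3 each), while the 66 mitochondrial ones summed to 4703 ± 38.0 CPM in CX01F and 5750 ± 48.7 CPM in CX01. The summed cytosolic reads were 12.1 to 12.4 times the summed mitochondrial ones in CX01F libraries, against 2.58 to 2.78 times in CX01 libraries. On chromosomes XI and XV, where the 9 mitochondrial genes all fell, 16 of 17 cytosolic ribosomal protein genes rose, with a median of 1.20, against a median of 2.20 over the 115 elsewhere. For the respiratory chain and ATP synthase the median was 0.29 over 5 genes on XI and XV, against 1.20 over 34 elsewhere. The medians of these lists too were lower on XI and XV than elsewhere.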

How the data were processed

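For 6 libraries of total RNA the authors deposited raw read counts per gene, as whole numbers. Tools named in the submitters' processing notes are Subread 1.4.6 with featureCounts, TopHat2 2.0.12 and Cufflinks. The genome build, annotation, strand setting and treatment of multiply mapping reads are not given in the sources used here. RefSeq R64 therefore served only for names, chromosomes, coding lengths and overlaps (6083 of 6400 genes matched), and no sequence or coordinate is printed. Promoters were not analysed here. A nameless row, with 0.00877% to 0.00916% of counts in CX01F and 0.0392% to 0.044% in CX01, was left out.

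The counts went into edgeR 4.0.16 under R 4.3.3 (filterByExpr at its minimum count, 10, and minimum total, 15, TMM, glmQLFit and glmQLFTest with strain as the only term and 4 residual degrees of freedom). Tests were two-sided and adjusted by Benjamini and Hochberg's method over 6129 genes. The filter took out 271. Log2 changes are CX01F minus CX01, and their SE is the change divided by the square root of F. CPM uses the TMM-scaled library size. The steps were checked on simulated counts in which few genes changed, as many up as down. With 91.4% of tested genes called in these data, that check does not cover the scaling here. Alternatives used DESeq2 1.42.0 and limma 3.58.1. The labels call the replicates biological, and each p-value sets the strain difference against the spread between them. That spread covers only cultures of these strains.

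The genes named were, in each subunit, the 6 highest and 6 lowest called changes at a mean of 10 CPM or more without overlap between strains, the 3 highest and 2 lowest levels per kb and each gene not passing, then MRP8 and the extremes of each other list; further genes were named after their values were seen. Members, subunits and lists were chosen with earlier results of these data known.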

Additional observations from a re-analysis of the deposited data

How the results depend on the processing

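Of 66 genes, 53 were called; 53 were called with DESeq2 size factors, 53 by limma voom, 51 by DESeq2's Wald test, 52 without the filter on low counts, and 51 to 54 when single libraries were left out. Without MRP8 and RSM22, 51 of 64 were called. Adding subunit proteins of other names, an alternative chosen after seeing the data, moved the large-to-small ratio of CX01F over CX01 to 0.949, against 0.883 over the name pattern. Scaling by library size alone changed most: 12 genes were higher (19 with TMM) and 48 lower, of them 6 higher in the small subunit (11 with TMM). Under it the medians were -0.30 (large) and -0.25 (small), and the summed ratios of CX01F over CX01 were 0.687 (large) and 0.778 (small). Scaling and fitting without chromosomes XI and XV shifted the median of all genes by -0.116 and gave medians of -0.15 (large) and -0.12 (small) and summed ratios of 0.861 (large) and 0.875 (small). These shifts follow from the scaling factors and the genes left out.

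Of the 53 genes called, the log2 change turned sign in MRP51, which was then called lower, and in MRP1, MRP21, MRPL9, MRPL11 and MRPS35, which were then not called, all by library size alone and under no other alternative. The others that turned were not called with TMM. By library size alone, log2 changes were -0.12 for MRPL17, -0.20 for MRPL35 and MRPL37, -0.19 for MRPL40 and MRPS28, -0.16 for MRPL6, -0.15 for MRPL7 and -0.17 for RSM19. Without chromosomes XI and XV they were -0.03 for MRPL17, -0.11 for MRPL35 and MRPL37, -0.10 for MRPL40 and MRPS28, -0.07 for MRPL6, -0.05 for MRPL7 and -0.08 for RSM19. Leaving out single libraries gave -0.03 to 0.00 for MRPL15, -0.01 to 0.03 for MRPL35, -0.02 to 0.03 for MRPL37 and -0.02 to 0.04 for MRPL40. Sums were not computed under the DESeq2 test, voom or the block.

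The replicate numbers are shared between the strains. Same-numbered libraries correlated in their deviations at -0.00986, 0.2 and 0.0187, so the numbers were not taken to pair cultures. Fitted with a replicate block, 54 of the 66 were called, 20 higher and 34 lower, and MRPL17 was added (log2 change 0.08, edgeR adjusted p = 0.021). The smallest differences, below about 0.1 on the log2 scale, are at the limit of 3 cultures per strain. Promoter motifs were not run.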
